A study of Mus musculus with 24 samples.

Results

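The genes described here encode proteins of synaptic vesicles and of the machinery that fuses vesicles with a target membrane. They were the rows of the count table that matched a fixed pattern of symbols, which gave 73 of 24079 rows. The pattern covered synaptotagmins, syntaxins, syntaxin-binding proteins, VAMPs, synapsins, SV2 proteins, synaptophysin, synaptoporin and synaptogyrins. It also covered SNAP25, SNAP47, RIMs, UNC13 proteins, complexins, Bassoon, Piccolo and NSF. *Stxbp5l* did not match the pattern and is counted among the further release genes below. By role they fell into 12 vesicle proteins, 14 SNAREs of the plasma membrane and of secretory vesicles (called neuronal SNAREs below), 10 SNAREs of other membranes, 10 SNARE regulators, 17 synaptotagmins and 10 active zone proteins. The rule reads gene symbols and no measured value.

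RNA was sequenced from 2 brain regions, the nucleus accumbens (Acb) and dorsal striatum (DS). The mice were either rpS6 knockins (rpS6 P-/-), whose ribosomal protein S6 carries alanine in place of every phosphorylatable serine, or wild-type littermates. All mice were male or female animals of a mixed C57Bl/6/Sv129/ICR background that had received no treatment, and their age at sequencing is not given in the sources used here. Each region and genotype had 3 replicates, each a pool of several mice, and each lysate gave a library of whole lysate RNA and a library of RNA from the heavy polysomal fractions of a sucrose gradient, which makes 24 libraries in 8 groups. The knockin replaces codons of *Rps6* and is present in every cell, so a count of *Rps6* reads does not check the genotype labels.

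When an action potential reaches a nerve terminal, calcium binds synaptotagmin on docked vesicles, and the SNARE proteins of vesicle and plasma membrane zip together and fuse the membranes. Complexins clamp and promote this step, Munc13 proteins and other regulators guide the assembly of SNAREs, and NSF takes the complexes apart for another round. RIM, Bassoon and Piccolo hold vesicles and calcium channels together at the active zone, while the heavy polysomal fraction holds transcripts that carry several ribosomes at once.

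Libraries held 11109431 to 34703044 assigned reads in heavy fractions and 9280589 to 20259509 in whole lysates. The 73 genes took 1.71 to 2.38% of reads in heavy fractions (median 2.019%) and 1.175 to 1.71% in lysates (median 1.474%). Shares of the total move with *Bc1*, a short noncoding RNA of neurons that took 0.897 to 3.845% of reads in heavy fractions and 15.15 to 26.1% in lysates, and levels are therefore given in CPM, reads per 1000000 reads of the library, after scaling of the libraries by the trimmed mean of M values. The 10 medium spiny neuron markers present in the table summed to 4220 to 4980 CPM in lysates and 5630 to 7310 CPM in heavy fractions, and none was at 0 in any group, which is the check made here of the labelled tissue. It cannot tell the Acb from the DS, because the sums overlap (4250 to 4620 CPM in wild-type Acb lysates, 4420 to 4980 CPM in wild-type DS lysates). P-values measure the spread between pooled samples, and in such tissue samples fewer cells of a type and less RNA per cell cannot be told apart.

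*Stx19*, *Syt8* and *Vamp7* had 0 reads in all 24 libraries, and *Cplx4* (7 reads over all libraries), *Syngr4* (20), *Stx11* (55), *Unc13d* (88), *Syt15* (306) and *Vamp5* (557) were close to it. Depending on the comparison, 66 to 69 members reached the minimum of 15 reads. Per 1000 bases of transcript, on the CPM scale divided by mean transcript length, on which genes can be compared, the highest level in wild-type DS lysates was that of *Snap25*, the plasma membrane SNARE with a pair of helices in the complex, at 1540 ± 113 (SD, n = 3). *Vamp2*, the SNARE of synaptic vesicles, followed with 1240 ± 164 and *Syp*, the vesicle protein synaptophysin, with 751 ± 59.4. The complexins *Cplx1* and *Cplx2* stood at 489 ± 12.4 and 486 ± 11.2. In wild-type Acb lysates the level of *Syp* was 813 ± 70.4, that of *Snap25* 786 ± 11.1 and that of *Vamp2* 762 ± 67.1. The order depends on the transcript taken as the length. With the longest coding transcript *Syp* stood at 348 in the DS and at rank 4, and *Cplx1* (293 ± 7.43) was below *Cplx2* (486 ± 11.2) by more than their spread. In the Acb the same length gave 992 ± 14 for *Snap25*, 739 ± 65.1 for *Vamp2* and 377 ± 32.7 for *Syp*, which lie apart by more than their spread.

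The starts of 5 coding sequences are shown because these transcripts lie on opposite sides of the fraction differences described next. Each line holds 18 bases of the longest coding transcript of GENCODE M21 (build mm10), 5′ to 3′, with the start codon in capitals.

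Snap25: accagtaccATGgccgaa

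Stx8: gactgcaccATGgccccg

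Stx1a: cccgggagcATGaaggac

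Unc13a: cctggagtcATGtctctg

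Bsn: ctgcccaccATGggcaac

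Of 65 members with such a sequence outside chromosome 18, 59 had A or G at the third base before the start codon and 28 had G right after it. In the DS of wild-type mice 31 of 56 tested members with A or G at that place had a positive fraction difference, and 2 of the 6 with another base. The median log2 difference was -0.16 in the 28 members with G after the start codon and 0.16 in the other 34. Both sides of the range held either form: *Snap25*, *Stx8* and *Bsn* have the G, and *Unc13a* and *Stx1a* do not.

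The first comparison asked which of these transcripts were richer or poorer in heavy polysomal fractions than in whole lysates. Several SNAREs and complexins were higher in heavy fractions, and most active zone proteins were lower. In the Acb of wild-type mice 17 members were higher and 15 lower of 68 tested, where 25.9% of all genes were called (13% higher and 12.9% lower). In the DS of wild-type mice 15 were higher and 15 lower of 68, where 24.3% of all genes were called (12.8% higher and 11.5% lower). A call is an adjusted p under 0.05 in the quasi-likelihood test of edgeR with Benjamini-Hochberg adjustment over all genes tested. In rpS6 P-/- mice the counts were 8 higher and 7 lower of 66 in the Acb, against 17.2% of all genes (7.7% higher, 9.5% lower), and 16 higher and 20 lower of 67 in the DS, against 28.6% (13.8% higher, 14.8% lower). The 4 comparisons share no library. In the Acb of rpS6 P-/- mice 6 members were called without both libraries (heavy and lysate) of replicate 1, and 6 without both of replicate 2. In the Acb of wild-type mice 18 were called without both libraries of replicate 1, and in the DS of rpS6 P-/- mice 23 without both of replicate 2. The shares of all genes called in these reduced fits are not given here, so these counts show nothing particular to the members. Of the called members named by rule, 12 of 22 in the wild-type Acb, 17 of 24 in the wild-type DS, 4 of 15 in the rpS6 P-/- Acb and 15 of 26 in the rpS6 P-/- DS kept the call under every alternative run.

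Over these 4 comparisons 44 members were called in at least 1 and none in both directions, while 29 were called in none. Those 29 include members not tested for want of reads. The same counts were not made over all genes. *Snap25*, *Stx7*, *Stx8* and *Syngr3* were higher in heavy fractions in all 4, which 3.38% of the genes tested in all 4 were, and another 9 members in 3, so that 13 of 66 members were higher in at least 3, against 9.37% of genes. In the Acb of rpS6 P-/- mice the call was kept under 17 of 17 alternatives for *Snap25*, 15 for *Stx7*, 8 for *Syngr3* and 7 for *Stx8*. *Bsn*, *Nsf*, *Pclo*, *Sv2c*, *Syn3*, *Unc13a* and *Unc13c* were lower in all 4 (5.08% of genes) and another 6 in 3, again 13 of 66 in at least 3, against 9.64% of genes. In the Acb of rpS6 P-/- mice the call of *Sv2c* was kept under 11 of 17 alternatives and that of *Unc13c* under 13. By role, 5 SNAREs of other membranes, 4 neuronal SNAREs, 2 vesicle proteins and 2 SNARE regulators were higher in at least 3, and 6 active zone proteins, 4 vesicle proteins and 3 SNARE regulators were lower in at least 3. No synaptotagmin was called the same way in more than 2 comparisons.

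**Figure D1:**
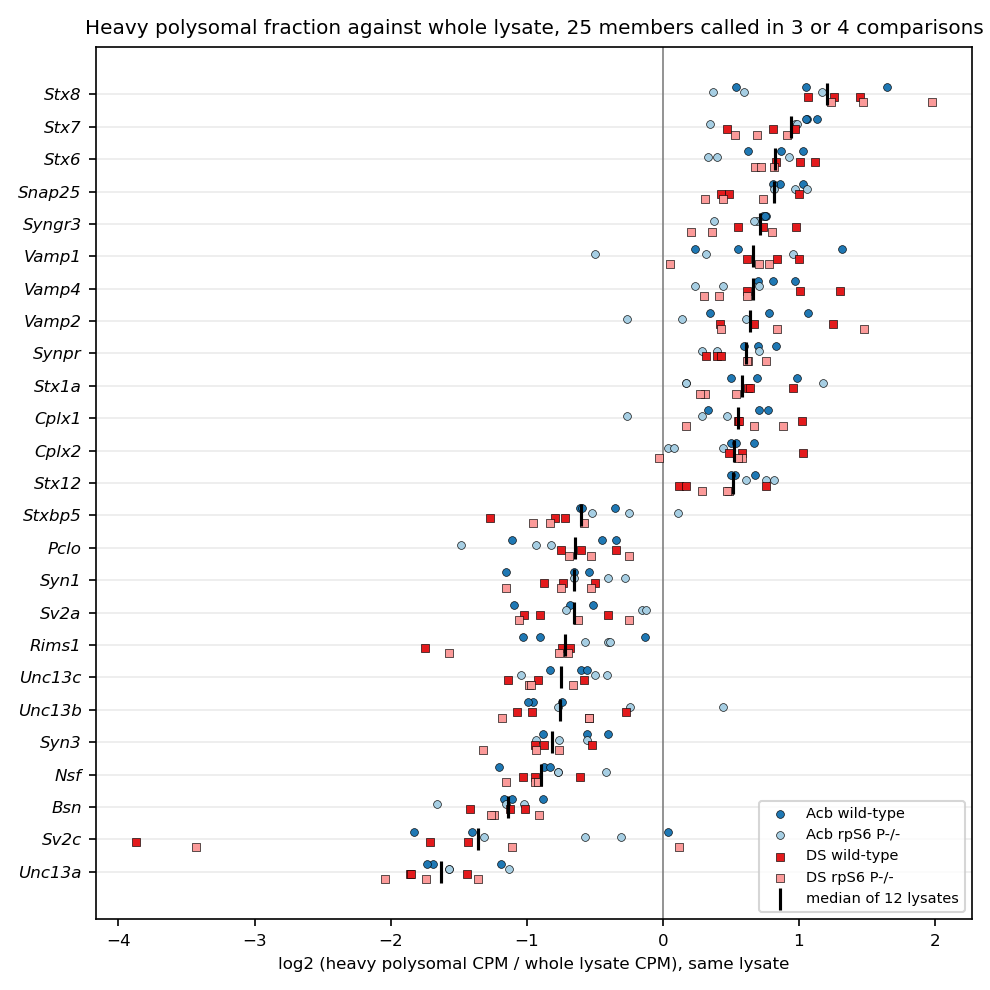
Log2 ratio of heavy polysomal to whole lysate CPM for 25 of the 26 members called in 3 or 4 of the 4 fraction comparisons. Each point is 1 of 12 lysates, coloured by region and genotype, and the vertical tick is the median of the 12 lysates. The ratios of *Unc13a* lie between -2.04 and -1.13 and those of *Snap25* between 0.31 and 1.06.

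Among the neuronal SNAREs, *Snap25* stood at 2070, 2090 and 2130 CPM in wild-type Acb lysates and at 4230, 3790 and 3730 CPM in the corresponding heavy fractions. Every heavy fraction was above every lysate, and the log2 fold change was 0.85 ± 0.12 (SE, adjusted p = 9.35e-06, edgeR). In the DS it stood at 4400, 3800 and 4120 CPM in lysates and at 6170, 7610 and 5570 CPM in heavy fractions, with a log2 fold change of 0.65 ± 0.13 (adjusted p = 0.00027). *Vamp2* was at 1270, 1210 and 1540 CPM in wild-type DS lysates and at 3030, 1620 and 2460 CPM in heavy fractions, again without overlap and with a log2 fold change of 0.82 ± 0.16 (adjusted p = 0.000283). *Vamp1*, its relative in motor and brainstem neurons, rose by 0.68 in the Acb and 0.83 in the DS of wild-type mice on the log2 scale. In rpS6 P-/- mice the values of *Vamp2* were 0.15 in the Acb, not called, and 0.91 in the DS, called.

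*Stx1a*, a syntaxin of the plasma membrane that pairs with SNAP25, was at 157, 203 and 173 CPM in wild-type DS lysates and at 305, 314 and 271 CPM in heavy fractions. All heavy fractions were above all lysates, with a log2 fold change of 0.74 ± 0.15 (adjusted p = 0.000363, edgeR). In the Acb of wild-type mice *Stx1a* rose by 0.66, and in rpS6 P-/- mice its values were 0.42 in the Acb, not called, and 0.34 in the DS (adjusted p = 0.0489, edgeR), a call kept under 5 of 17 alternatives. Its coding sequence has 867 bases.

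SNAREs of other membranes serve endosomes, lysosomes and the Golgi, and none of the 9 tested was called lower in heavy fractions in any of the 4 comparisons. *Stx8*, an endosomal syntaxin (chr11:67966411-68207148, mm10), was at 27, 24.2 and 19.5 CPM in wild-type DS lysates and at 64.6, 50.8 and 53.3 CPM in heavy fractions, with a log2 fold change of 1.25 ± 0.20 (adjusted p = 2.31e-05, edgeR). *Stx7*, which pairs with it in late endosomes, was at 111, 99 and 113 CPM in wild-type Acb lysates and at 232, 205 and 247 CPM in heavy fractions, with a log2 fold change of 1.03 ± 0.14 (adjusted p = 6.94e-06). In both genes no heavy fraction fell within the range of the lysates. *Stx6* and *Vamp4*, SNAREs of the trans-Golgi network, rose by 0.79 and 0.77 in the Acb and by 0.99 and 0.96 in the DS of wild-type mice. *Stx16*, *Stx17*, *Stx18* and *Stx5a* were called in none of the 4.

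The active zone proteins lay at the other end. *Unc13a*, which encodes the priming factor Munc13-1 (chr8:71624125-71671774, mm10), was at 143, 130 and 102 CPM in wild-type Acb lysates and at 44.3, 39.1 and 44.7 CPM in heavy fractions. In the DS it was at 197, 216 and 191 CPM in lysates and at 54.5, 60 and 70.6 CPM in heavy fractions. The groups stood far apart in both regions, with log2 fold changes of -1.60 ± 0.16 (adjusted p = 8.98e-08, edgeR) and -1.71 ± 0.16 (adjusted p = 8.75e-09), so that the heavy level was 0.329 and 0.306 times the lysate level. *Bsn*, the scaffold Bassoon (chr9:108096022-108190419, mm10), was at 145, 145 and 197 CPM in wild-type DS lysates and at 72, 66.7 and 73.6 CPM in heavy fractions, with a log2 fold change of -1.20 ± 0.16 (adjusted p = 2.35e-06). *Unc13a* and *Bsn* kept this call under each of the 17 alternatives run in each of the 4 comparisons. *Rims1*, the scaffold RIM1, fell by 0.76 in the Acb and by 1.01 in the DS, whereas *Rims2*, *Rims3* and *Rims4* were called in none of the 4. *Pclo* (Piccolo) fell in all 4, by 0.52 to 1.09, but in the DS of rpS6 P-/- mice its value became 0.13 once the trend on transcript length was removed from each library.

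The vesicle proteins split. *Syngr3*, a synaptogyrin, was at 126, 136 and 129 CPM in wild-type Acb lysates and at 214, 228 and 216 CPM in heavy fractions, with a log2 fold change of 0.70 ± 0.14 (adjusted p = 0.000389, edgeR), and *Synpr*, synaptoporin, rose by 0.66. *Sv2c*, the SV2 form of the basal ganglia, was at 20, 12 and 14.9 CPM in wild-type DS lysates and at 1.37, 3.69 and 5.55 CPM in heavy fractions, with a log2 fold change of -2.11 ± 0.39 (adjusted p = 0.000144). The synapsins, which tether vesicles to the cytoskeleton, all had negative values in wild-type mice, with -0.83 for *Syn1*, -0.35 for *Syn2* and -0.66 for *Syn3* in the Acb and -0.70, -0.27 and -0.78 in the DS, of which those of *Syn2* were not called. *Sv2a* fell by 0.79 and 0.75. *Syp* was not called in either region of wild-type mice (0.02 and 0.17) and was higher in the Acb of rpS6 P-/- mice (0.45, adjusted p = 0.0288, edgeR), a call lost under 7 of 17 alternatives.

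Among SNARE regulators, *Nsf*, the ATPase that takes SNARE complexes apart, was at 567, 579 and 624 CPM in wild-type Acb lysates and at 311, 327 and 271 CPM in heavy fractions, with a log2 fold change of -1.01 ± 0.14 (adjusted p = 4.39e-06, edgeR). *Napa*, which encodes its adaptor alpha-SNAP, was higher in heavy fractions (0.75, adjusted p = 0.000181). *Cplx1* and *Cplx2* were higher by 0.57 and 0.52 in the Acb and by 0.73 and 0.72 in the DS of wild-type mice. *Stxbp5*, tomosyn, fell by 0.57 and 0.91.

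Of 16 synaptotagmins tested, 3 were higher and 1 lower in the Acb of wild-type mice, a share near the 25.9% of all genes called there. In their DS 1 was higher and none lower, where 24.3% of all genes were called. *Syt1*, the calcium sensor of fast release, was at 1030, 951 and 959 CPM in wild-type Acb lysates and at 823, 949 and 924 CPM in heavy fractions, with every heavy value below every lysate value but a log2 fold change of -0.18 that was not called. Of all genes 39.1% did not overlap in that comparison. *Syt1* was called in the DS of rpS6 P-/- mice alone (-0.49, adjusted p = 0.00107, edgeR), a call that ended with the length trend removed (-0.22). *Syt7*, the slow sensor, stood at 0.14 in both regions of wild-type mice, without a call.

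Within single lysates, 63 members had reads in all 24 libraries and so had 12 ratios of heavy to lysate CPM each. For 9 of them (*Snap25*, *Stx12*, *Stx1a*, *Stx6*, *Stx7*, *Stx8*, *Syngr3*, *Synpr* and *Vamp4*) all 12 log2 ratios were above 0, and for 9 others (*Bsn*, *Nsf*, *Pclo*, *Rims1*, *Sv2a*, *Syn1*, *Syn3*, *Unc13a* and *Unc13c*) all 12 were below 0. The same count was not made over all genes, and the libraries are those of the fraction comparisons above. The median log2 ratio over the 12 lysates was -1.63 for *Unc13a*, -1.14 for *Bsn*, 0.82 for *Snap25* and 1.20 for *Stx8*. The fraction differences of the Acb and the DS were compared in wild-type mice with an interaction term, and none of 69 members passed in edgeR, as none of all genes did (0.0%). At an unadjusted p under 0.05 there were 2 members (2.9%), against 4.6% of all genes.

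The members differ widely in coding length, and the fraction difference followed it. In the DS of wild-type mice the 25 members under 900 coding bases had a median log2 fold change of 0.73, with 14 called higher and 1 lower. The 27 members of 900 to 2000 bases had a median of -0.13. The 16 members of 2000 bases or more had a median of -0.81, with 0 higher and 12 lower. Over all genes the medians of the same length classes were 0.55 (n = 3712), 0.07 (n = 6405) and -0.48 (n = 4500), so the order was that of the whole table. The shares of all genes called in each class are not given here, so the called counts show nothing particular to the members. Spearman's rho between coding length and fraction difference, across genes of one library set that are not independent replicates, was -0.777 over 68 members and -0.500 over all genes in the DS, and -0.642 and -0.464 in the Acb of wild-type mice. In rpS6 P-/- mice it was -0.353 over 66 members in the Acb and -0.774 over 67 in the DS, where all genes gave -0.247 and -0.551. The part of length in the single fraction differences above was tested only by the removal of a trend on transcript length. After this removal *Unc13a* stood at -1.51 in the Acb and -1.47 in the DS, and *Snap25* at 0.92 and 0.88. *Pclo* stood at -0.38 and -0.06, both without a call. These genes are examples chosen with the values known. *Pclo* was not the only member to lose a call, as that of *Syt1* in the DS of rpS6 P-/- mice ended too. How many calls of members were lost with the trend removed is not given here.

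**Figure D2:**
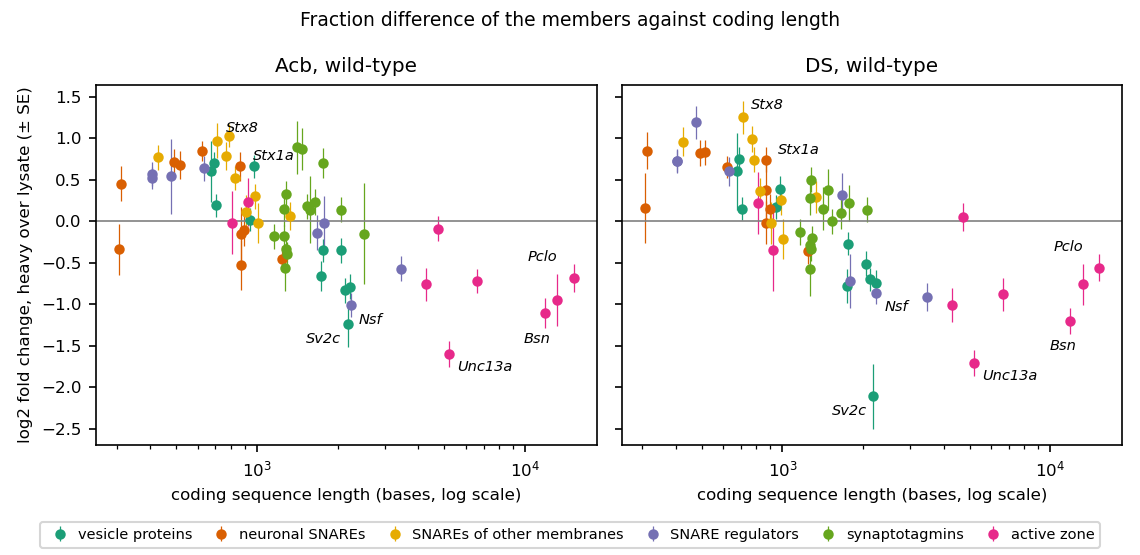
Log2 fold change of heavy over lysate (± SE) against coding length on a log axis, for 62 members in the Acb and 60 in the DS of wild-type mice with at least 50 reads on average. Colours are roles. In the DS all tested members under 900 bases, those not drawn included, have a median of 0.73 and those of 2000 bases or more one of -0.81.

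Among 46 further genes of vesicle release and recycling (Rab3 and its effectors, liprins, ELKS, vesicular transporters, vacuolar ATPase subunits and endocytic proteins), 12 were higher and 14 lower of 45 in the Acb and 7 higher and 15 lower of 46 in the DS of wild-type mice. Of all genes 13% were higher and 12.9% lower in the Acb and 12.8% and 11.5% in the DS, so the share that was higher in the DS was near that of all genes. In rpS6 P-/- mice 11 were higher and 12 lower of 45 in the Acb (7.7% and 9.5% of all genes), and 6 higher and 17 lower of 45 in the DS (13.8% and 14.8%). The largest decrease among those called in the Acb was that of *Dnm1*, the endocytic GTPase dynamin 1, with 181 CPM in heavy fractions and 431 CPM in lysates on average (log2 fold change -1.30, adjusted p = 3.41e-07, edgeR). *Rab3gap2*, which acts on Rab3, and *Synj1*, synaptojanin, followed that direction with -1.19 and -1.11. *Rab3a*, the GTPase of synaptic vesicles, was higher by 0.63 in the Acb and by 0.82 in the DS.

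The comparison of regions asked which of these genes differ between the Acb and the DS. Most that differed were lower in the Acb. In lysates of wild-type mice 4 members were higher and 17 lower in the Acb of 68 tested, where 12.7% of all genes were called (6.54% higher and 6.15% lower). In heavy fractions of wild-type mice 4 were higher and 12 lower of 69, against 8.15% (4.72% higher, 3.43% lower). In rpS6 P-/- mice 4 were higher and 20 lower of 67 in lysates, against 10.9% (4.84% higher, 6.03% lower), and 6 higher and 19 lower of 66 in heavy fractions, against 18.6% (7.89% higher, 10.7% lower). The region comparisons use the libraries of the fraction comparisons, and heavy and lysate libraries come from the same mice. Counts fell to 10 in wild-type heavy fractions without Acb library 2 or DS library 1, to 13 in rpS6 P-/- lysates without DS library 1, and in rpS6 P-/- heavy fractions to 16 and 15 without Acb library 2 or 3 and to 13 without DS library 2 or 3. How the share of all genes called moved in these reduced fits is not given here, so the falls show nothing particular to the members. Of the called members named by rule, 15 of 19, 9 of 15, 12 of 21 and 7 of 17 kept the call under every alternative run, in the order of these comparisons.

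*Bsn*, *Cplx2*, *Cplx3*, *Stx1a*, *Sv2b*, *Syt17* and *Vamp2* were lower in the Acb in all 4 region comparisons, which 1.72% of genes tested in all 4 were, and *Nsf*, *Rims1*, *Snap25*, *Syn1*, *Syt13* and *Unc13b* in 3, so that 13 of 66 members were lower in at least 3, against 3.35% of genes. *Sv2c* and *Unc13c* were higher in the Acb in all 4 (1.77% of genes) and *Syt10* in 3, so that 3 of 66 were higher in at least 3, against 3.37% of genes. Some of these calls were lost under alternatives, with that of *Syt17* in wild-type heavy fractions kept under 8 of 14, that of *Vamp2* there under 9 of 14 and that of *Sv2c* in rpS6 P-/- lysates under 7 of 14. By role, 3 neuronal SNAREs, 3 SNARE regulators, 3 active zone proteins, 2 synaptotagmins and 2 vesicle proteins were lower in at least 3. No SNARE of other membranes was called in either direction in lysates, where 12.7% of all genes were called in wild-type and 10.9% in rpS6 P-/- mice. The role has 10 members, too few to set against those shares. *Stx6* and *Stx8* were each called lower in the Acb in 1 comparison of heavy fractions.

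*Stx1a* was at 47.2, 33.6 and 43.6 CPM in wild-type Acb lysates and at 157, 203 and 173 CPM in DS lysates. All DS libraries were above all Acb libraries, with a log2 fold change of -2.07 ± 0.15 (adjusted p = 1.66e-14, edgeR). In heavy fractions of wild-type mice *Stx1a* gave -2.11 ± 0.16. *Cplx3*, a complexin of ribbon synapses and of some cortical neurons, was at 4.97, 6.87 and 1.2 CPM in Acb lysates and at 22.3, 25.5 and 30.4 CPM in DS lysates, again without overlap (log2 fold change -2.51 ± 0.34, adjusted p = 3.29e-07, edgeR). *Snap25* was at 2070 to 2130 CPM in the Acb and 3800 to 4400 CPM in the DS (-0.94 ± 0.09, adjusted p = 4.59e-11). *Sv2b*, the SV2 form that forebrain excitatory neurons carry, was at 165, 130 and 129 CPM in the Acb and at 342, 380 and 326 CPM in the DS (-1.27 ± 0.12, adjusted p = 1.11e-10).

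Of the genes higher in the Acb, *Unc13c*, which encodes Munc13-3, was at 143, 139 and 120 CPM in wild-type Acb lysates and at 67.7, 49.6 and 53 CPM in DS lysates. The groups did not overlap, with a log2 fold change of 1.27 ± 0.14 (adjusted p = 6.3e-09, edgeR), while *Unc13a* (-0.66) and *Unc13b* (-1.22) were lower in the Acb. *Sv2c* was at 40.9, 37.7 and 15.3 CPM in the Acb and at 20, 12 and 14.9 CPM in the DS, so the lowest Acb library lay within the DS range (1.04 ± 0.26, adjusted p = 0.00473, edgeR). Without Acb library 1 or 2, and with all libraries in one fit, that call was lost in lysates. In heavy fractions *Sv2c* was at 11.5, 14.2 and 15.7 CPM in the Acb against 1.37, 3.69 and 5.55 CPM in the DS, without overlap (1.93 ± 0.39, adjusted p = 0.00472). *Syt10*, a synaptotagmin, was at 8.99, 11.7 and 9.31 CPM in Acb heavy fractions and 0.182, 1.71 and 1.27 CPM in DS heavy fractions (3.19 ± 0.52, adjusted p = 0.00076, edgeR).

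**Figure D3:**
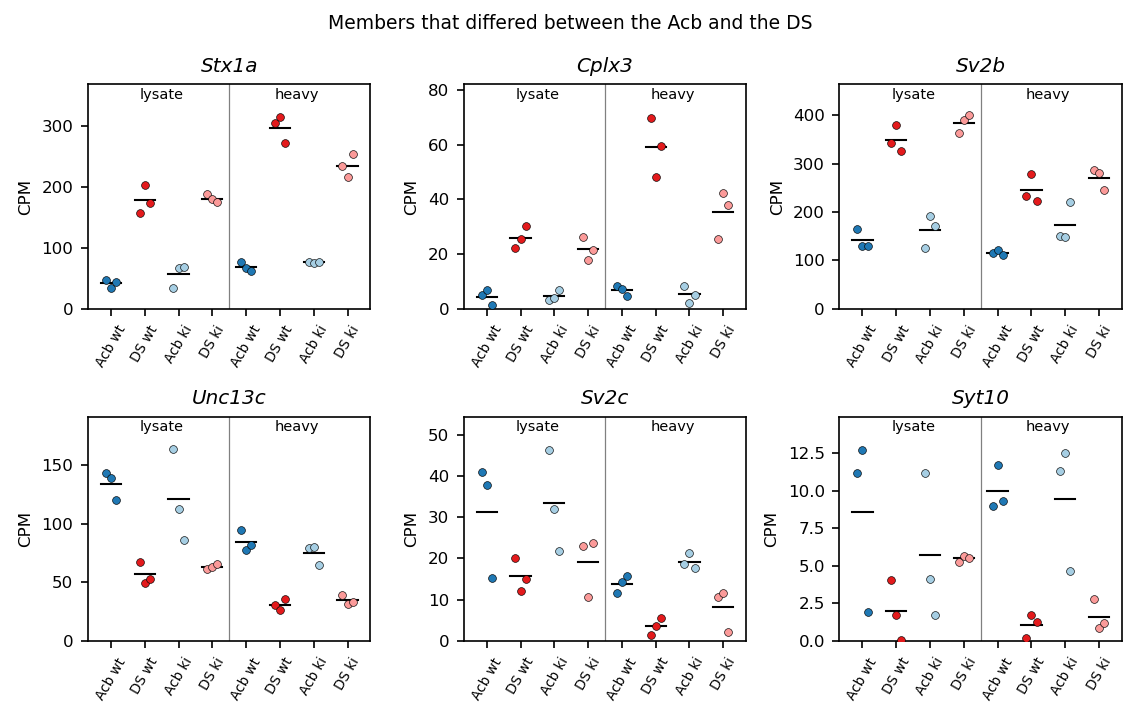
CPM of members that differed between the Acb and the DS, by region, fraction and genotype (wt, wild-type, and ki, rpS6 P-/-). Points are the 3 replicates of each group and bars their mean, on axes that start at 0. *Stx1a* lies between 33.6 and 77.1 CPM in the 12 Acb libraries and between 157 and 314 CPM in the 12 DS libraries.

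Markers of other cells differed between the regions too. Of 7 markers of cortical excitatory neurons (among them *Slc17a7*, *Neurod2* and *Tbr1*), 6 were lower in the Acb in each of the 4 region comparisons. Their median log2 differences were -3.66 and -3.62 in lysates and heavy fractions of wild-type mice and -3.10 and -2.63 in those of rpS6 P-/- mice. Summed, they reached 171 to 335 CPM in the Acb groups and 832 to 1150 CPM in the DS groups, and none was at 0 in a group. *Slc17a7*, the vesicular glutamate transporter of cortical neurons, was at 78.5 CPM in Acb and 537 CPM in DS lysates of wild-type mice (-2.73 on the log2 scale, adjusted p = 2.79e-16, edgeR). Of the 7 microglia markers 6 were higher in the Acb in lysates of wild-type mice (summed 193 to 227 CPM against 105 to 130 CPM), as were 5 of 7 astrocyte markers (2340 to 2850 CPM against 1700 to 1820 CPM). The part of these cells in the region differences was not tested.

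Of the further release genes, 5 were higher and 17 lower of 46 in the Acb in wild-type lysates, where 6.54% and 6.15% of all genes were. The counts were 5 and 11 of 46 in wild-type heavy fractions (4.72% and 3.43% of all genes), 3 and 16 of 45 in rpS6 P-/- lysates (4.84% and 6.03%), and 6 and 3 of 46 in rpS6 P-/- heavy fractions (7.89% and 10.7%). *Rph3a*, the Rab3 effector rabphilin, was at 153 CPM in the Acb and 367 CPM in the DS (wild-type lysates, log2 difference -1.24, adjusted p = 4.1e-11, edgeR). *Slc32a1*, the vesicular GABA transporter, was on the other side, with 212 CPM in the Acb and 107 CPM in the DS (1.02, adjusted p = 7.36e-08).

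The comparison of genotypes asked whether rpS6 P-/- mice differ from wild-type littermates. No member passed the adjusted threshold in any of the genotype comparisons. In heavy fractions of the Acb 0 of 68 were called in edgeR, where 0.0% of all genes were, and the lowest adjusted p of a member was 0.0983. At an unadjusted p under 0.05 there were 20 of 68 members (29.4%), 14 higher and 6 lower in rpS6 P-/- mice, against 21.7% of all genes (10.2% higher, 11.5% lower). DESeq2 called 5 members there, among them *Snap47*, *Sv2b* and *Syn2*, all higher, where it called 5.86% of all genes.

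*Sv2b* was at 115, 121 and 111 CPM in wild-type heavy fractions of the Acb and at 150, 149 and 221 CPM in those of rpS6 P-/- mice. The groups did not overlap, with a log2 fold change of 0.62 ± 0.18 (adjusted p = 0.107, edgeR) and an adjusted p of 0.0216 in DESeq2. *Syn2* was at 252, 308 and 272 CPM and at 367, 360 and 497 CPM (0.60 ± 0.17, adjusted p = 0.106, edgeR, and 0.0192, DESeq2). *Snap47*, a SNARE related to SNAP25, was at 168, 209 and 177 CPM and at 224, 239 and 334 CPM (0.56 ± 0.18, adjusted p = 0.121, edgeR, and 0.0357, DESeq2). In both genes every rpS6 P-/- library was above every wild-type library. Between the genotypes 23 of 68 members did not overlap in these fractions, against 25% of all genes. *Vamp2* had the opposite sign, with 1660, 980 and 1550 CPM against 1080, 1000 and 708 CPM in overlapping groups (-0.55 ± 0.20, adjusted p = 0.138, edgeR).

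**Figure D4:**
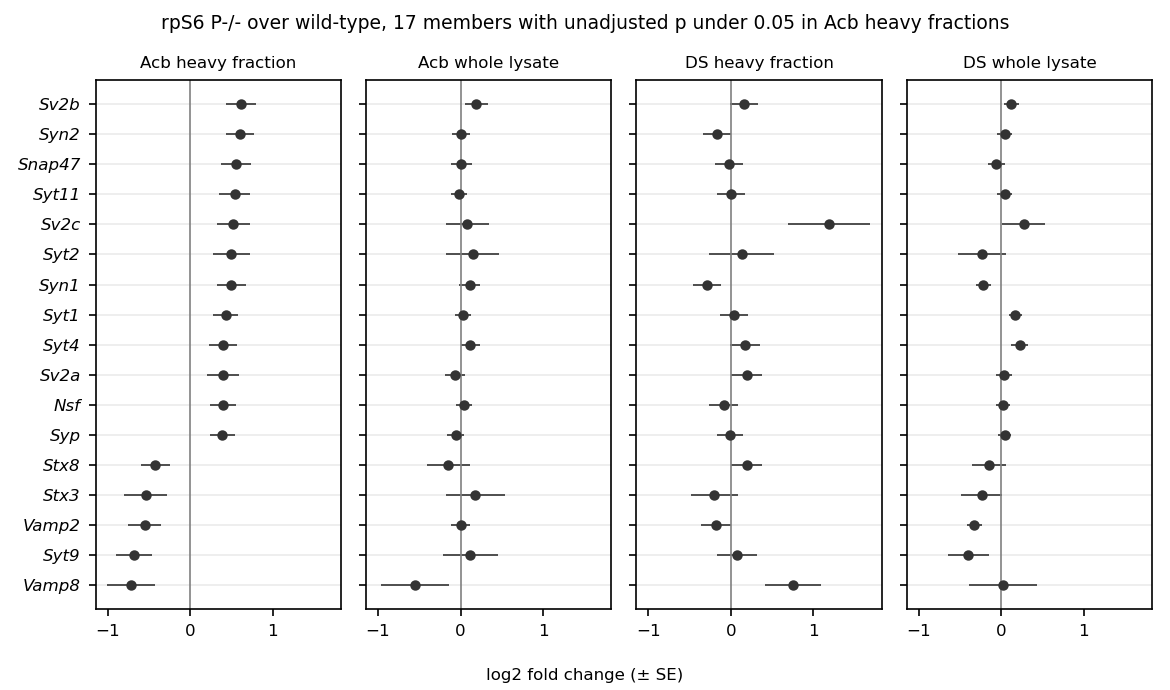
Log2 fold change of rpS6 P-/- over wild-type (± SE, n = 3 per group) for 17 members with an unadjusted p under 0.05 in Acb heavy fractions, in each region and kind of RNA. *Sv2b* stands at 0.62 in Acb heavy fractions, and no value in any panel passed the adjusted threshold in edgeR.

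The genotype values of Acb heavy fractions also followed coding length. The 25 members under 900 coding bases had a median log2 difference of -0.34, with 4 of 25 above 0, those of 900 to 2000 bases one of 0.17 with 17 of 27 above 0, and those of 2000 bases or more one of 0.28 with 10 of 16. All genes had medians of -0.39 (n = 3870), 0.08 (n = 6660) and 0.17 (n = 4618) in these classes. Spearman's rho across genes was 0.493 over 68 members and 0.405 over 15148 genes.

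In lysates of the Acb 0 of 67 members were called in edgeR, where 0.0065% of all genes were, and 1 member (1.49%), *Stx1a* (log2 difference 0.42), had an unadjusted p under 0.05, against 2.96% of all genes. In heavy fractions of the DS 0 of 67 were called, against 0.044%, and 6 (8.96%) had an unadjusted p under 0.05, against 6.42%. These were *Cplx3* (-0.73), *Vamp1* (-0.62), *Cplx2* (-0.48) and *Syt13* (-0.43) on the lower side and *Vamp8* (0.75) and *Sv2c* (1.19) on the upper. In lysates of the DS 0 of 67 were called, against 0.122%, and 10 (14.9%) had an unadjusted p under 0.05, against 9.07%. There *Vamp2* was at 1270, 1210 and 1540 CPM in wild-type mice and at 1190, 1080 and 971 CPM in rpS6 P-/- mice (-0.33 ± 0.09, adjusted p = 0.113, edgeR). The groups did not overlap, which held for 13.6% of all genes. Of the members DESeq2 called *Vamp2* and *Cplx1*, with 0.609% of all genes called.

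The change of genotype in heavy fractions relative to lysates, an interaction term, gave 0 calls of 68 members in the Acb and 0 of 68 in the DS with edgeR, where it gave 0.0% of all genes in both regions. At an unadjusted p under 0.05 there were 11 members (16.2%) in the Acb, against 11.9% of genes, and 3 (4.41%) in the DS, against 4.9%. *Syn2* gave a log2 difference of 0.58 ± 0.21 in the Acb (adjusted p = 0.302, edgeR). The difference of the genotype effects between regions in heavy fractions gave 0 of 69 members against 0.00592% of genes, with 14 (20.3%) at an unadjusted p under 0.05 against 13.8%. *Syn2* gave a log2 difference (Acb minus DS) of 0.78 ± 0.24 (adjusted p = 0.146, edgeR), and its heavy fractions of the DS stood at 333, 380 and 310 CPM in wild-type and 349, 255 and 296 CPM in rpS6 P-/- mice, in overlapping groups.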

How the data were processed

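The authors deposited raw counts of reads per gene for 24079 genes in 24 stranded poly-A libraries, without normalization. Their steps were alignment to mm10 with TopHat 2.0.13 on Bowtie 2.2.3, removal of alignments above 3 mismatches, and strand-specific counting in union mode by HTSeq 0.6.1p1. The sources give the number of mice pooled per replicate differently, so it is not stated here. Depth ranged from 9280589 to 34703044 assigned reads.

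Genes with at least 15 reads over the libraries of a comparison were tested with edgeR 4.0.16 in R 4.3.3 (TMM scaling, quasi-likelihood test, Benjamini-Hochberg adjustment over all genes, threshold 0.05), separately for fraction, region and genotype and with interaction terms. limma 3.58.1 and DESeq2 1.42.0 served alternatives, and figures used Python 3.11.15, pandas 2.3.3 and matplotlib 3.10.9. The scripts were tested on simulated data. Lengths and start codons came from GENCODE M21 (72 members matched).

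Members and lists were chosen with earlier results of these data known. The naming rule took a core set of 18 members in every comparison. It added, per comparison, all called members where 10 or fewer were called, otherwise the 8 that rose most and the 8 that fell most. Those 8 were drawn from called members averaging at least 50 reads. The text gives values for only part of the members so taken, a choice made with the values known. Other members are named for their level, their recurrence over comparisons or their role, and were chosen after their values were seen.

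Heavy and lysate libraries are paired by the lysate they came from, per the methods. Correlations of their deviations from the group means ranged from -0.0377 to 0.0743 over 12 pairs, with 0 of 12 above 0.1. Alternatives were DESeq2's size factors, the filterByExpr filter, no filter, DESeq2's Wald test, removal of a length trend (loess, span 0.5), the replicate block with and without it, all 24 libraries in one fit, and leaving out each library. No other fold changes or tables of the authors were used. Some members are not reported here by name, though counts include them.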

Additional observations from a re-analysis of the deposited data

Results flagged for a closer look

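For *Syn2* and *Syt1* the difference between regions in rpS6 P-/- mice had opposite signs in heavy fractions and in lysates, with no overlap between Acb and DS libraries in either kind of RNA. *Syn2* was higher in the Acb in heavy fractions (log2 difference 0.46) and lower in lysates (-0.29), a gap of 0.75 on the log2 scale. *Syt1* gave 0.39 and -0.29, a gap of 0.68. Both genes were picked for this pattern. Neither gene was called higher in the Acb in any region comparison, and each was called lower there in 1. Of all genes 36.4% did not overlap between regions in these heavy fractions and 26.5% in these lysates. Genes with opposite signs were not counted over the whole table. The difference between the kinds of RNA was not tested for either gene.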

How the results depend on the processing

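Counts of called members changed by more than 1.5 times in these cases, where the cause was not tested unless named. With the replicate block and the length trend removed, 26 members were called between regions in wild-type heavy fractions in place of 16. Between genotypes in Acb heavy fractions 4 members were called without a filter in place of 0. There 5 were called by DESeq2 (5.86% of all genes) and 5 with all libraries in one fit. In DS lysates 1 was called in place of 0 without a filter and 2 by DESeq2 (0.609% of all genes). The replicate block gave 1 there (*Vamp2*), and the block together with removal of the length trend gave 1 (*Cplx2*). The genotype difference between regions in heavy fractions gave 1 by DESeq2 and 3 with all libraries in one fit. For the other counts of this paragraph the share of all genes called is not given here, so they show nothing particular to the members. Leaving out a library, or both libraries of a lysate, which lowers the number of samples, gave 18 to 36 called members for fraction in the wild-type Acb, 6 to 19 in the rpS6 P-/- Acb and 23 to 38 in the rpS6 P-/- DS, and for region 10 to 17 in wild-type heavy fractions, 13 to 22 in rpS6 P-/- lysates and 13 to 21 in rpS6 P-/- heavy fractions. The fraction value of *Pclo* in the rpS6 P-/- DS turned to 0.13 with the length trend removed and to 0.11 with the replicate block as well. Pairing heavy and lysate libraries as a replicate block gave 32, 31, 16 and 37 called members for fraction (wild-type Acb, wild-type DS, rpS6 P-/- Acb, rpS6 P-/- DS) and 0 for both interactions of genotype and kind of RNA, and changed no such count by more than 1.5 times. Across regions and genotypes replicates share only a number. Correlations within same-numbered pairs were -0.256 to 0.217 for regions (1 of 12 above 0.1) and -0.295 to 0.32 for genotypes (2 of 12), and the replicate block gave 24, 24, 26 and 18 called members for region in wild-type lysates, wild-type heavy fractions, rpS6 P-/- lysates and rpS6 P-/- heavy fractions. For single named genes, 2704 of the values under settings that keep all libraries stayed on their side of the threshold, 61 gained and 73 lost a call and 2 changed sign, while leaving libraries out kept 2983, gained 15 and lost 209. Depth limits what can be said of the members near 0 reads.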
